A study of Mus musculus and Acomys cahirinus with 84 samples.

Results

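Growth differentiation factor 15 (Gdf15) and 9 genes of the same signalling family were followed across irradiated skin fibroblasts of 3 rodent populations. The 10 genes, chosen by symbol and with no measured value, were the secreted ligands Gdf15, Tgfb1, Tgfb2, Tgfb3, Inhba, Gdf10, Bmp2, Bmp4 and Bmp6, and Grem1, which encodes not a ligand but an extracellular antagonist of bone morphogenetic proteins (BMPs). Each symbol was found once among the 56980 gene identifiers of the mouse count table and once among the 19818 gene names of the *A. cahirinus* table. The cells were primary skin fibroblasts, grown out of skin and not immortalised, from mice labelled C56BL6, from wild mice and from the African spiny mouse *Acomys cahirinus*, a rodent of another genus. Messenger RNA was sequenced in 84 libraries, 4 in each of 21 groups. In every population the groups were untreated cells (0 Gy), cells given 10 Gy and cells given 20 Gy of gamma radiation, each collected 24 h later and 12 d later, and, at 12 d, untreated cells that had also been passaged. The labels give no age, sex or number of passages, and none of the groups carried an engineered allele. The 24 h libraries and the 12 d libraries are separate sets. Collection time therefore cannot be told apart from any batch that goes with it, and values were tested within each time only.

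The family signals through pairs of membrane receptor kinases that phosphorylate SMAD proteins, which then enter the nucleus. The TGF-beta and activin ligands act mainly through SMAD2 and SMAD3, and the BMPs mainly through SMAD1, SMAD5 and SMAD9. Activin A is a dimer of the protein encoded by Inhba, and TGF-betas are secreted in a latent form bound to the matrix. In skin fibroblasts TGF-beta is best known for driving matrix synthesis and contraction. Gdf15 is a distant member of the family that acts on the brainstem receptor GFRAL with its partner RET, and its gene is a known target of p53 and of the stress factors ATF4 and CHOP. It is also a widely used secreted marker of cell stress and of senescence, the lasting arrest that cultured fibroblasts enter after ionising radiation.

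The members lie on 7 mouse chromosomes in the GRCm39 build, with Ensembl release 108 gene models as the mouse table gives them. Gdf15 (ENSMUSG00000038508) is at chr8:71082043-71085106, Inhba (ENSMUSG00000041324) at chr13:16186436-16206206 and Grem1 (ENSMUSG00000074934) at chr2:113576509-113588991. Bmp4 (ENSMUSG00000021835) is at chr14:46620977-46628126 and Gdf10 (ENSMUSG00000021943) at chr14:33645544-33659940. Tgfb1 (ENSMUSG00000002603) is at chr7:25386427-25404502, Tgfb2 (ENSMUSG00000039239) at chr1:186354989-186438186 and Tgfb3 (ENSMUSG00000021253) at chr12:86103519-86125815. Bmp2 (ENSMUSG00000027358) is at chr2:133394079-133404805 and Bmp6 (ENSMUSG00000039004) at chr13:38529083-38684278. Exons of Tgfb2, Tgfb3, Bmp4 and Bmp6 share between 2.1% and 7.6% of their length with a gene on the other strand in mice. In *A. cahirinus* the exons of Bmp6 share 1.7% with Txndc5. Counting did not use strand, so reads from those stretches cannot be assigned to one gene or the other. Gdf15, Inhba, Grem1, Tgfb1, Gdf10 and Bmp2 had no such overlap.

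Gdf15, Inhba and Grem1 rose together in C56BL6 cells 12 d after irradiation, so the 250 bases upstream of their annotated starts are shown. The starts are those of the canonical transcripts in GENCODE vM39, build GRCm39, and each sequence is written 5′ to 3′ on the gene's own strand. Capitals mark matches to the motifs searched, and the Inhba sequence, which lies in an intron of longer Inhba transcripts, held none.
Gdf15 (chr8:71085112-71085361, minus strand): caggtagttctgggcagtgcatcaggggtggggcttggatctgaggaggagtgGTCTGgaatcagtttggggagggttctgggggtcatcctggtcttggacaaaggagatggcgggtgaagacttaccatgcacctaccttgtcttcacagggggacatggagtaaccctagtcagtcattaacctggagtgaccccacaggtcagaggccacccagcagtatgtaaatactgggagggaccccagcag
Inhba (chr13:16188733-16188982, plus strand): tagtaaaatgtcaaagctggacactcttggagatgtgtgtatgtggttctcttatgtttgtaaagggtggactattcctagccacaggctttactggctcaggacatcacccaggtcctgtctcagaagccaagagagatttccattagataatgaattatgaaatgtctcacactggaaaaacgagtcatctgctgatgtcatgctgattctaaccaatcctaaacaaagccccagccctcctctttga
Grem1 (chr2:113589001-113589250, minus strand): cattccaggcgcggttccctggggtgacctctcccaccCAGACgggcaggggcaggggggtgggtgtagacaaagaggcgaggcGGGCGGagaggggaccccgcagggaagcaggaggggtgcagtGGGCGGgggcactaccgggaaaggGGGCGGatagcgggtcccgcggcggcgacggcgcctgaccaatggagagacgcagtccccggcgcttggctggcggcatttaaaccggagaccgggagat
The motifs were searched on both strands, and their background is the share of the same window holding them over 21757 protein-coding genes: the AP-1 site TGANTCA (6.18% of windows), the cAMP response element TGACGTCA (1.7%), the C/EBP-ATF response element TGATGNAA (3.39%), the GC box GGGCGG (36.3%), the SMAD box CAGAC (41.4%) and TATAAA (11.9%). The Gdf15 window held 1 SMAD box on its minus strand, 193 to 197 bases upstream. The Grem1 window held 1 SMAD box and 3 GC boxes, the nearest GC box 95 to 100 bases upstream. The AP-1, cAMP, C/EBP-ATF and TATAAA letters were in none of the 3 windows, which says only that these letters are not there. A match is a run of letters and was not tested as a binding site. The GC content of the windows was 56% for Gdf15, 43.2% for Inhba and 70.8% for Grem1.

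Levels are given in CPM, a gene's count over the total count (in M) of its library. For CPM that total was adjusted by edgeR's TMM scaling over the libraries of its table. The total of a C56BL6 library was 26.65 to 39.82 M counts, that of a wild library 17.42 to 35.98 M and that of an *A. cahirinus* library 25.55 to 52.86 M. The floor was set at 3 counts over the unadjusted totals and covers counting error only. It was 0.075 to 0.113 CPM, 0.083 to 0.172 CPM and 0.057 to 0.117 CPM in the same order. Fibroblast markers summed to at least 10570 CPM in every library, and all 8 were present. Other cell types differed between cultures. Keratinocyte markers (6 genes, 1 of them at or under 0.2 CPM in every library) summed to 243 to 936 CPM in the C56BL6 libraries of replicate 1, at both times, and to 1.3 to 5.22 CPM in the other C56BL6 libraries. Mural cell markers (4 genes) summed to 1820 to 2500 CPM in wild replicate 1 at 24 h and reached 45.6 to 90.7 CPM in replicates 2 and 4 at that time. Muscle precursor markers (3 genes) summed to 41.3 to 291 CPM in *A. cahirinus* and to at most 0.2407 CPM in the mice. In a bulk sample, fewer cells of a type and less RNA per cell cannot be told apart.

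The libraries labelled wild replicate 1 at 12 d went against their number. Library names give each replicate number one animal code within a population. Genes with at least 10 counts in all libraries of one number and 0 in all of another separated wild number 1 at 12 d from wild number 1 at 24 h (36 genes), but not from wild number 4 at 12 d or at 24 h (0 genes each). Numbers 2, 3 and 4 of the wild mice showed 0 such genes between the 2 times, and other pairs of different wild numbers showed 14 to 107. The check separates less well elsewhere. C56BL6 numbers 3 and 4 showed 0 such genes at 24 h and 1 at 12 d, and pairs of different *A. cahirinus* numbers showed 0 to 4. Whether the libraries labelled wild 1 and wild 4 at 12 d come from separate animals cannot be told from these counts, so the blocked wild fits at 12 d were repeated without each of them. The wild 24 h library of replicate 1 at 10 Gy had 17843 genes detected against 21846 to 22253 in the rest of its group.

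Tests used edgeR's quasi-likelihood method over all expressed genes with Benjamini-Hochberg adjustment, first without and then with a block for the replicate number, which compares libraries of one animal code with each other. Log2 changes carry their standard error (SE). An adjusted p under 0.05 is called passed, and a member whose p misses it is not thereby shown to be unchanged.

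Per exon length, Grem1, Tgfb3 and Inhba had the highest means of the members in each mouse group. In *A. cahirinus* Inhba came after both Tgfb1 and Tgfb2, and Bmp2 was lowest in every group but C56BL6 cells 24 h after 20 Gy, where Gdf10 was. In untreated C56BL6 cells at 12 d, RPKM (CPM per kilobase of exon) were 57.4 ± 29.2 (SD, n = 4) for Grem1, 29.1 for Tgfb3, 16.8 for Inhba, 6.57 for Tgfb1, 4.78 for Tgfb2, 1.51 for Bmp6, 0.968 for Gdf15, 0.73 for Gdf10, 0.389 for Bmp4 and 0.00241 for Bmp2. At 24 h the order was led by Inhba (71.8 ± 11.3 RPKM) and Tgfb3 (47.7 ± 11.4 RPKM), and Gdf15 (7.9 ± 0.532 RPKM) came between Tgfb2 and Tgfb1. After 20 Gy at 12 d, Grem1 reached 205 ± 32.5 RPKM in C56BL6 cells, Inhba moved above Tgfb3 with 49.1 against 34.1 RPKM, and Gdf15 was at 5.63 RPKM. Untreated *A. cahirinus* cells at 12 d also had Grem1 first (72.3 ± 43.2 RPKM) and Tgfb3 second (64.7 RPKM), neighbours that their spread does not separate. Tgfb2 (44.1 RPKM) and Tgfb1 (31.5 RPKM) came before Inhba (8.32 RPKM) there, an order the mouse cells did not have. The wild mean of 197 ± 379 RPKM for Grem1 at 12 d rests on 1 library. The 2 tables use different gene models, so levels are set side by side across species and not tested. Exon length is 14274 bases for Inhba in *A. cahirinus* and 6390 in the mouse, and 2244 and 5042 for Tgfb1. The order depends on these lengths. In CPM, untreated *A. cahirinus* cells at 12 d had means of 366.6 for Tgfb2, 118.8 for Inhba, 113.2 for Grem1 and 70.72 for Tgfb1. Inhba thus lay above Tgfb1 in CPM and below it in RPKM.

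Gdf15 had counts in every library. At 12 d it rose in irradiated C56BL6 cells, against the untreated group that was not labelled passaged. In wild cells it rose only in the fit with the block, and in *A. cahirinus* it did not change detectably. The C56BL6 means of Gdf15 at 12 d were 1.792 CPM untreated, 10.42 CPM at 20 Gy and 15.84 CPM in untreated passaged cells. At 24 h the untreated C56BL6 libraries had 14.3, 15.5, 15.4 and 13.4 CPM of Gdf15 in the order of their replicate numbers. After 10 Gy they had 18.5, 19.5, 28.2 and 21 CPM. After 20 Gy they had 21, 20.4, 35.1 and 25.9 CPM. Neither dose overlapped with the untreated libraries, and replicate 3 was highest at both doses. The log2 change at 20 Gy was 0.81 ± 0.17 (adjusted p = 0.153), and with the block 0.78 ± 0.1 (adjusted p = 0.000179). The change at 10 Gy was 0.58 ± 0.14 (adjusted p = 0.296), and 0.56 with the block (adjusted p = 0.00299). Within replicate numbers 20 Gy was above 10 Gy in 4 of 4 (0.23 ± 0.05 with the block, adjusted p = 0.0473).

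Wild cells at 24 h had Gdf15 at 14.5, 7.42, 5.72 and 17.9 CPM untreated and at 20.3, 29.2, 9.84 and 45 CPM after 20 Gy. The groups overlapped, but each replicate number was higher after 20 Gy than before. The log2 change was 1.22 ± 0.52 (adjusted p = 0.842) and passed with the block (1.17 ± 0.2, adjusted p = 0.00345). The change at 10 Gy was 1.38 ± 0.51 (adjusted p = 0.941) and 1.34 ± 0.19 with the block (adjusted p = 0.196). In *A. cahirinus* at 24 h the untreated libraries had 8.77, 5.14, 6.84 and 5.67 CPM and those at 20 Gy had 6.08, 14.8, 8.86 and 10.6 CPM. Replicate 1 was lower after 20 Gy and the other 3 were higher, with a change of 0.65 ± 0.28 (adjusted p = 0.274; 0.0992 with the block). At 10 Gy all 4 were higher (0.53 ± 0.18, adjusted p = 0.167; 0.54 with the block, adjusted p = 0.00897).

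At 12 d Gdf15 was 2.55 ± 0.57 log2 units higher in C56BL6 cells given 20 Gy than in untreated cells (adjusted p = 0.0138). The untreated libraries had 0.651, 3.57, 2.19 and 0.757 CPM. After 10 Gy they had 9.14, 10.5, 13.5 and 9.45 CPM, and after 20 Gy 8.8, 10.9, 15.4 and 6.53 CPM. Both doses lay above all untreated libraries and overlapped with each other. The change at 10 Gy was 2.59 ± 0.53 (adjusted p = 0.013). Folds within animal codes at 20 Gy were 13.5, 3.07, 7.03 and 8.63. Without replicate 3 or 4 the change at 20 Gy was 2.41 and 2.46 with adjusted p-values of 0.0884 and 0.0528, and without replicate 1 or 2 it passed (0.0123 and 0.0313). The 10 Gy change likewise missed the threshold without replicate 3 (0.102) or 4 (0.0661). Marker sums moved in the same libraries. The 8 fibroblast markers, of which Col1a1 and Col1a2 are also on the list of TGF-beta targets below, summed to 29530 to 49460 CPM untreated, 11900 to 14300 CPM at 10 Gy, 10950 to 14820 CPM at 20 Gy and 17480 to 25760 CPM when passaged. The 4 mural cell markers, none of them absent, summed to 42.3 to 71.1 CPM untreated, 72.8 to 154.6 CPM at 10 Gy, 107.7 to 147.7 CPM at 20 Gy and 92.2 to 240.9 CPM when passaged. Their part in the C56BL6 values of Gdf15, Inhba and Grem1 was not tested.

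Gdf15 also rose with passaging in C56BL6 cells. The untreated passaged libraries had 16.8, 15.3, 15.9 and 15.4 CPM, a change of 3.16 ± 0.52 over untreated cells (adjusted p = 0.0019) that passed without each replicate in turn. Cells given 20 Gy differed from passaged cells by −0.63 ± 0.23 log2 units (adjusted p = 0.0582), which passed with the block (−0.69 ± 0.18, adjusted p = 0.0132).

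In wild cells at 12 d Gdf15 differed widely between replicate numbers within each group. The untreated libraries had 8.37, 0.268, 0.708 and 14.7 CPM, and those at 20 Gy had 16.1, 5.22, 3.49 and 36.3 CPM. Replicates 1 and 4, the pair that the count-based check did not separate, were high in every group, and replicates 2 and 3 were low. Folds within numbers were 1.93, 19.5, 4.92 and 2.47. The change was 1.4 ± 1.19 (adjusted p = 0.674) and passed with the block (1.84 ± 0.41, adjusted p = 0.0294). The block fit gave 2.28 without number 1 (adjusted p = 0.0721) and 2.18 without number 4 (adjusted p = 0.0947). Passaged wild cells had 10.5, 5.23, 5.7 and 21.4 CPM of Gdf15, 0.85 ± 1.09 above untreated cells (adjusted p = 0.664; 0.101 with the block).

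In *A. cahirinus* at 12 d Gdf15 was 3.39, 3.96, 3.1 and 3.86 CPM untreated, 3.37, 4.22, 3.6 and 3.76 CPM after 10 Gy and 1.71, 6.64, 2.18 and 3.24 CPM after 20 Gy. Replicate 2 was above its untreated partner at 20 Gy and the other 3 were below theirs, with folds of 0.506, 1.68, 0.703 and 0.838. The change at 20 Gy was −0.04 ± 0.4 (adjusted p = 0.956) and −0.51 without replicate 2 (adjusted p = 0.131). Passaged *A. cahirinus* cells had 5.41, 5.69, 8.06 and 6.66 CPM, all above every untreated library. That change was 0.83 ± 0.17 (adjusted p = 0.00936), and it missed the threshold without replicate 1 (0.0551) or 3 (0.0719). Cells given 20 Gy differed from passaged cells by −0.88 ± 0.4 (adjusted p = 0.108; −1.03 with the block, adjusted p = 0.0332), and the gap was −1.46 without replicate 2 (adjusted p = 0.00139). Muscle precursor markers summed to 41.3 CPM in replicate 2 at 20 Gy and to 185 to 224 CPM in its other 3 libraries. The fibroblast sum was 31170 to 36620 CPM untreated, 20720 to 33410 CPM at 20 Gy and 20260 to 26700 CPM when passaged. The part of these markers in the Gdf15 values was not tested.

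**Figure D1:**
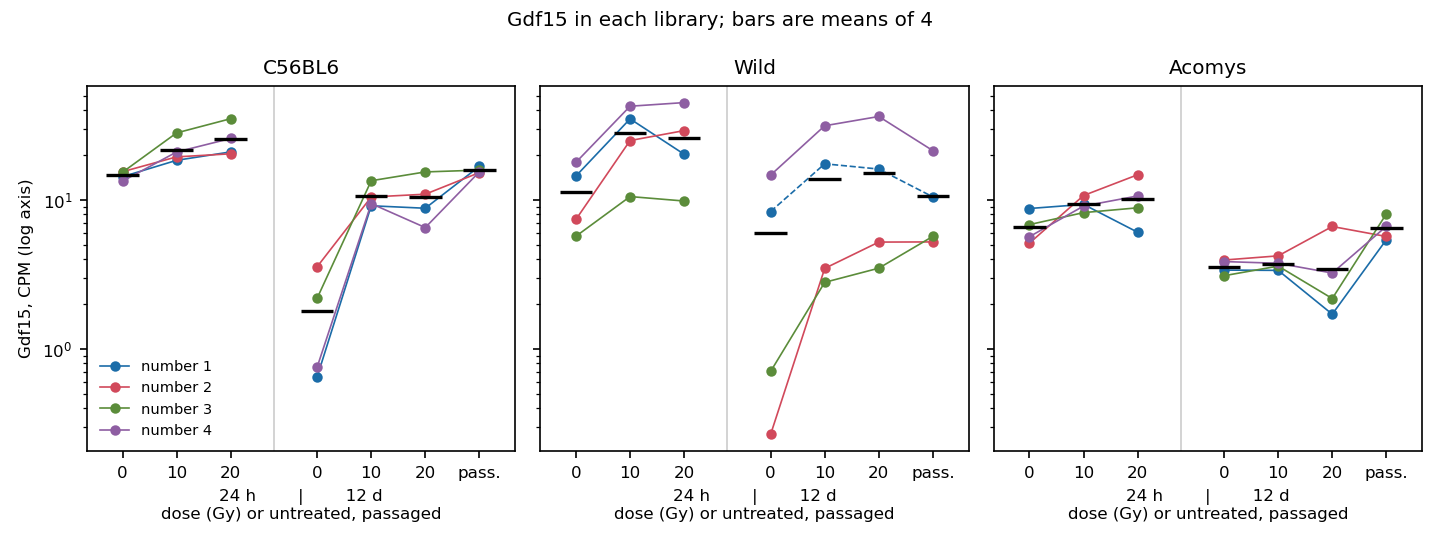
Gdf15 in CPM on a log axis for every library, by dose at 24 h and at 12 d with the passaged group last, in the 3 populations. Coloured lines join libraries of one replicate number, black bars are means of 4, and the dashed line is the wild number 1 at 12 d. The 12 d untreated C56BL6 libraries (0.651 to 3.57 CPM) lie below all irradiated and passaged ones, while the untreated and 20 Gy libraries of *A. cahirinus* overlap.

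The difference between populations was itself tested. The change of Gdf15 at 20 Gy and 12 d was smaller in *A. cahirinus* than in C56BL6 cells, with an interaction of −2.57 ± 0.73 log2 units (adjusted p = 0.0256; −2.93 with the block, adjusted p = 0.00144). Leaving out a replicate number gave −2.16 to −3.62, and the difference passed without number 2 only (adjusted p = 0.00592, against 0.0812, 0.174 and 0.112 without 1, 3 and 4). Against wild cells it was −1.42 ± 1.33 (adjusted p = 0.618; −2.02 with the block, adjusted p = 0.029). The block value against wild cells missed the threshold without number 1 (adjusted p = 0.0761) or 4 (0.086). Wild and C56BL6 cells differed by −1.15 ± 1.38 (adjusted p = 1.0; 0.661 with the block). At 24 h the interaction of *A. cahirinus* with C56BL6 cells was −0.17 ± 0.34 (adjusted p = 0.95).

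Mdm2 and Cdkn1a, which are also p53 targets, rose in *A. cahirinus* and in C56BL6 cells. Mdm2, the ubiquitin ligase that degrades p53, rose by 1.29 at 20 Gy and 12 d in *A. cahirinus* (adjusted p = 0.00235) and by 1.71 in C56BL6 cells (adjusted p = 0.00106). Cdkn1a, which encodes the cell cycle inhibitor p21, rose by 1.36 in *A. cahirinus* (adjusted p = 0.00123) and by 0.88 in C56BL6 cells (adjusted p = 0.0109). The interactions between these populations were −0.42 for Mdm2 (adjusted p = 0.324) and 0.48 for Cdkn1a (adjusted p = 0.202).

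The 5 genes whose log2 CPM followed Gdf15 most closely were taken in each population over its 28 libraries, after the mean of each time point was taken out. In C56BL6 cells they included Nqo1 and Pik3r5 (Pearson r = 0.93 each), Mrs2 and Ptpn21 (0.92 each), of 12770 genes ranked. In wild cells they were Rab3b (0.89), Col10a1 (0.84), Bin1 and Thap6 (0.83 each) and Bmp8a (0.82). In *A. cahirinus* they were Gcc1 and Cebpb (0.83 each), Slc16a14 (0.8), Arrdc1 (0.79) and Ppard (0.78). Nqo1 is an oxidative stress enzyme and Cebpb a transcription factor of the C/EBP family. Among the other members Inhba was nearest to Gdf15 in C56BL6 cells (r = 0.81). Inhba had r = −0.13 in wild and 0.51 in *A. cahirinus* libraries, where the nearest members ranked were Bmp6 (0.46) and Gdf10 (0.57). Mdm2 had r = 0.65 in C56BL6, 0.61 in wild and −0.03 in *A. cahirinus* libraries, and Cdkn1a 0.39, 0.49 and −0.35. Libraries of one animal share its culture, so these values are descriptions.

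Of the 3 TGF-betas, Tgfb2 and Tgfb3 rose 12 d after 20 Gy in *A. cahirinus*. None passed in the mice without the block when all replicates were kept. Tgfb2 had 405, 371, 360 and 331 CPM in untreated *A. cahirinus* libraries and 604, 521, 478 and 530 CPM after 20 Gy, with no overlap. The change was 0.56 ± 0.11 (adjusted p = 0.00545), and passaged cells (312 to 383 CPM) were 0.59 below the irradiated ones (20 Gy against passaged, 0.59 ± 0.11, adjusted p = 0.00349). Tgfb3 had 203, 206, 214 and 265 CPM untreated, 324, 283, 319 and 368 CPM after 10 Gy and 367, 259, 415 and 456 CPM after 20 Gy. The 10 Gy libraries all lay above the untreated ones, and at 20 Gy replicate 2 fell within the untreated range. Changes were 0.55 ± 0.11 at 10 Gy (adjusted p = 0.0441) and 0.77 ± 0.18 at 20 Gy (adjusted p = 0.0127). The 20 Gy change missed the threshold without replicate 1 (0.0812) or 3 (0.0864), and the 10 Gy change without replicate 1 (0.359), 3 (0.245) or 4 (0.159).

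In C56BL6 cells at 12 d Tgfb2 had 55.2, 20.3, 21.4 and 14 CPM untreated and 71.8, 44.1, 32.9 and 23.7 CPM after 20 Gy, higher within every number. The change was 0.65 ± 0.48 (adjusted p = 0.344) and passed with the block (0.73 ± 0.12, adjusted p = 0.00324). Tgfb3 there was at 66.3 to 166 CPM untreated and 87.4 to 161 CPM after 20 Gy (0.24 ± 0.32, adjusted p = 0.603). The Tgfb3 folds within numbers were 0.969, 1.56, 1.12 and 1.32. Without replicate 1 both Tgfb2 and Tgfb3 passed as higher in C56BL6 cells at 20 Gy and at 10 Gy, in the fit without the block. At 24 h Tgfb3 was lower after 20 Gy within every C56BL6 number (−0.41 ± 0.16, adjusted p = 0.459; −0.4 with the block, adjusted p = 0.00314). The Tgfb3 interaction of *A. cahirinus* against wild cells at 12 d was 1.23 ± 0.51 (adjusted p = 0.201; 1.09 with the block, adjusted p = 0.00715). The blocked value missed the threshold without number 1 (1.03, adjusted p = 0.0712) and passed without number 4 (1.16, adjusted p = 0.034). Wild cells had 104 to 429 CPM of Tgfb3 untreated and 111 to 222 CPM after 20 Gy. Wild replicate 1 at 24 h had 865, 660 and 983 CPM of Tgfb3 at 0, 10 and 20 Gy, against 77.2 to 135 CPM in replicates 2 to 4. The same libraries carried the high sum of mural cell markers, whose part in this was not tested.

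Tgfb1, the form most studied in fibrosis, ran at 17.9 to 74.3 CPM in C56BL6, 18.5 to 83.6 CPM in wild and 52.7 to 105 CPM in *A. cahirinus* libraries. C56BL6 replicate 1 had 43.7 to 74.3 CPM in all 7 groups and the other replicates 17.9 to 30.8 CPM, beside the keratinocyte markers of the same replicate, whose part was not tested. At 12 d and 20 Gy the changes were 0.02 ± 0.49 in C56BL6 (adjusted p = 0.978), 0.18 ± 0.34 in wild (adjusted p = 0.879) and 0.1 ± 0.09 in *A. cahirinus* cells (adjusted p = 0.458). The C56BL6 folds within numbers were 0.65, 1.65, 1.41 and 1.33, so only replicate 1 fell. Without replicate 1 Tgfb1 passed as higher in C56BL6 cells at 20 Gy and at 10 Gy, in the fit without the block. At 10 Gy the *A. cahirinus* libraries (78.9 to 94.2 CPM) lay above the untreated ones (68.9 to 72.0 CPM) without overlap, with a change of 0.28 ± 0.07 (adjusted p = 0.0737; 0.0166 with the block).

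Inhba, the subunit of activin A, rose in C56BL6 cells 12 d after irradiation and rose with passaging. Untreated C56BL6 libraries had 178, 92.4, 82.1 and 76.8 CPM, those at 20 Gy 320, 362, 308 and 264 CPM and passaged ones 348, 497, 415 and 382 CPM. Neither group overlapped with the untreated libraries, of which replicate 1 was highest. Changes were 1.56 ± 0.27 at 20 Gy (adjusted p = 0.00557), 1.36 ± 0.27 at 10 Gy (adjusted p = 0.0121) and 1.95 ± 0.28 with passaging (adjusted p = 0.00107). Without replicate 2 or 3 the 20 Gy change had adjusted p-values of 0.0531 and 0.0532. The 10 Gy change missed the threshold without replicate 2 (0.0891), 3 (0.103) or 4 (0.0601). The difference between 20 Gy and passaged cells was −0.41 ± 0.13 (adjusted p = 0.0342), and it missed the threshold without replicate 2 (0.0563), 3 (0.143) or 4 (0.101).

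In *A. cahirinus* Inhba had 102, 175, 90.7 and 108 CPM untreated, 174, 404, 166 and 186 CPM after 20 Gy and 261, 304, 231 and 261 CPM when passaged. Replicate 2 was highest in each of these groups. The change at 20 Gy was 0.99 ± 0.34 (adjusted p = 0.0536) and passed with the block (0.93 ± 0.1, adjusted p = 0.000463). Passaged cells were 1.13 ± 0.22 above untreated ones (adjusted p = 0.00807), and without replicate 1, 3 or 4 the adjusted p was 0.0757, 0.0515 and 0.0537. Wild cells had 95.9, 243, 133 and 89.3 CPM untreated and 236, 241, 268 and 197 CPM after 20 Gy, so only replicate 2 did not gain. The wild change was 0.78 ± 0.32 (adjusted p = 0.335; 0.9 with the block, adjusted p = 0.0371), and with the block it missed the threshold without number 1 (0.166) or 4 (0.153). The interaction of *A. cahirinus* with C56BL6 cells was −0.56 ± 0.47 (adjusted p = 0.434; −0.71 ± 0.23 with the block, adjusted p = 0.0347).

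Gdf10, also called BMP3b, rose with passaging and fell after 20 Gy in *A. cahirinus*, whereas passaged mouse cells had lower values than untreated ones. Untreated *A. cahirinus* libraries had 4.03, 1.93, 4.07 and 1.73 CPM at 12 d, those at 20 Gy 0.654, 1.25, 1.54 and 1.14 CPM and passaged ones 15.3, 16.3, 21.6 and 15 CPM. The 3 groups did not overlap. The 24 h libraries of *A. cahirinus*, which were not tested against those of 12 d, had 12.9 to 21 CPM. Passaged cells were 2.52 ± 0.3 above untreated cells (adjusted p = 0.00144), and cells given 20 Gy were at −1.33 ± 0.38 (adjusted p = 0.0307). The fall at 20 Gy missed the threshold without replicate 1 (0.174), 3 (0.114) or 4 (0.0616). Between 20 Gy and passaged cells the change was −3.85 ± 0.26 (adjusted p = 4.71e-05).

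In C56BL6 cells Gdf10 had 3.12, 0.21, 4.42 and 7.47 CPM untreated, 0.724, 0.688, 1.71 and 2.14 CPM after 20 Gy and 0.293, 0, 0.0719 and 0.274 CPM when passaged, the last from 10 counts or fewer per library. The fitted difference of 20 Gy over passaged cells was 3.0 ± 0.77 (adjusted p = 0.0146; 0.0922 without replicate 3 and 0.0578 without replicate 4). Gdf10 entered that comparison only through its counts at 20 Gy, so the value is given as a description. The change against untreated cells was −1.51 ± 0.84 (adjusted p = 0.212). At 24 h all C56BL6 libraries had 8 counts or fewer. Wild cells had 43.4, 5.8, 96.8 and 47.8 CPM untreated and 6.5, 0.371, 8.53 and 14.1 CPM when passaged. Passaged wild cells were lower within every number, by −2.71 ± 1.03 (adjusted p = 0.129; −2.83 ± 0.35 with the block, adjusted p = 0.00397), and this passed with the block without number 1 (0.0274) or 4 (0.00933). Gdf10 was also lower at 20 Gy than at 10 Gy within every wild number at 12 d (−0.76 ± 0.98, adjusted p = 1.0; −0.9 ± 0.14 with the block, adjusted p = 0.0208; 0.0503 without number 1 and 0.0432 without number 4). At 24 h wild replicates 3 and 4 had 7.12 to 18.2 CPM and replicates 1 and 2 had 0 to 0.343 CPM, in every dose group.

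Bmp4, a BMP with roles in hair follicle and dermal signalling, rose 12 d after 20 Gy in *A. cahirinus*. The untreated libraries had 1.69, 2.96, 2.24 and 2.36 CPM at 12 d, those at 10 Gy 8.14, 6.53, 5.28 and 3.58 CPM, those at 20 Gy 15.2, 5.72, 12.7 and 10.5 CPM and passaged ones 1.62, 0.873, 1.95 and 1.27 CPM. Both irradiated groups lay above the untreated group, and replicate 2 was lowest at 20 Gy. The change at 20 Gy was 2.27 ± 0.31 (adjusted p = 0.00139), which stayed between 1.95 and 2.63 and passed without each replicate in turn. At 10 Gy it was 1.35 ± 0.29 (adjusted p = 0.0511; 1.31 with the block, adjusted p = 0.00915), and 20 Gy against passaged cells gave 2.97 ± 0.36 (adjusted p = 0.000524). At 24 h Bmp4 was at 0.678 to 2.41 CPM in *A. cahirinus*, with a change of 0.35 ± 0.38 at 20 Gy (adjusted p = 0.709).

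In the mice most Bmp4 counts came from single replicate numbers. C56BL6 replicate 1, the replicate with keratinocyte markers, had 1.33 to 3.02 CPM in its 7 libraries and no other C56BL6 library passed 0.794 CPM. Wild replicate 3 had 7.92 to 13 CPM at 12 d and the rest at most 0.383 CPM. At 24 h wild replicates 1 and 3 had 6.32 to 10.6 and 2.56 to 5.42 CPM, and replicates 2 and 4 had 0 counts in all 3 dose groups. Mural cell markers were also highest in these wild replicates (1820 to 2500 and 773 to 875 CPM at 24 h), and their part was not tested. The Bmp4 change at 20 Gy and 12 d in C56BL6 cells was 0.3 ± 1.32 (adjusted p = 0.889), and the interaction of *A. cahirinus* against C56BL6 was 1.95 ± 1.38 (adjusted p = 0.347).

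Bmp6, known best as the liver signal that sets hepcidin, was higher in irradiated than in passaged C56BL6 cells. It had 2.23, 4.93, 9.38 and 7.03 CPM untreated, 8.49, 14.9, 15.3 and 16.2 CPM after 20 Gy and 2.84, 4.0, 3.6 and 5.68 CPM when passaged. The 20 Gy and passaged groups did not overlap (1.75 ± 0.27, adjusted p = 0.00141). Against untreated cells the change was 1.23 ± 0.41 (adjusted p = 0.0565; 1.34 ± 0.2 with the block, adjusted p = 0.00254). Wild cells at 20 Gy were above passaged ones within every number (1.07 ± 0.44, adjusted p = 0.166; 1.13 with the block, adjusted p = 0.00283), and with the block this passed without number 1 (0.0147) or 4 (0.00619). In *A. cahirinus* Bmp6 was 1.96 to 6.59 CPM untreated and 3.71 to 9.15 CPM after 20 Gy, higher within every number (0.66 ± 0.43, adjusted p = 0.271; 0.68 with the block, adjusted p = 0.0187).

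Bmp2, an inducer of bone formation, had 0 to 31 counts in a library and at most 0.6903 CPM, both maxima in irradiated *A. cahirinus* cells at 24 h. Untreated C56BL6 cells at 12 d had 1, 0, 0 and 0 counts and cells at 20 Gy had 7, 21, 7 and 12 counts (0.195, 0.556, 0.193 and 0.292 CPM). *A. cahirinus* had 5 to 10 counts untreated and 6 to 18 after 20 Gy. Bmp2 failed the expression filter in each of these comparisons alone. The joint fit gave an interaction of −4.18 ± 0.92 (adjusted p = 0.00729; 0.0759 without number 3), a fitted value that depends on the prior count, is not a bound and cannot be read as a difference between populations.

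Grem1 rose 12 d after 20 Gy in C56BL6 and in *A. cahirinus* cells and was higher there than in passaged cells. Its product gremlin binds BMP2, BMP4 and BMP7 and keeps them from their receptors. C56BL6 libraries at 12 d had 269.5, 395, 163 and 125 CPM untreated, 669.5, 1016, 965 and 924 CPM after 10 Gy, 672, 987, 911 and 833 CPM after 20 Gy and 98.1, 125, 179 and 229 CPM when passaged. All irradiated libraries lay above all untreated and passaged ones. Changes were 1.93 ± 0.35 at 10 Gy (adjusted p = 0.0088; 0.085 without replicate 3) and 1.85 ± 0.35 at 20 Gy (adjusted p = 0.0077; 0.0649 without replicate 3). Passaged cells were at −0.58 ± 0.39 against untreated ones (adjusted p = 0.248), and 20 Gy exceeded passaged cells by 2.41 ± 0.27 (adjusted p = 0.000313).

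At 24 h the C56BL6 change of Grem1 had the opposite sign. Untreated libraries had 102, 84.6, 158 and 187 CPM and those at 20 Gy 88.8, 60, 109 and 120 CPM, lower within every number. The change was −0.49 ± 0.29 (adjusted p = 0.656) and passed with the block (−0.47 ± 0.06, adjusted p = 0.000238). In *A. cahirinus* Grem1 was at 60.2 to 186 CPM untreated and 75.2 to 188 CPM after 20 Gy at 24 h, and the interaction with C56BL6 was 0.62 (adjusted p = 0.788; 0.000309 with the block).

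In *A. cahirinus* at 12 d Grem1 had 108, 209, 83.4 and 52.9 CPM untreated, 271, 538, 228 and 180 CPM after 20 Gy and 94.1, 157, 74.0 and 51.3 CPM when passaged. Replicate 2 was highest in all 3 groups, and folds within numbers at 20 Gy ran from 2.51 to 3.4. The change was 1.45 ± 0.48 (adjusted p = 0.0482; 1.5 ± 0.1 with the block, adjusted p = 9.39e-05). Without the block it missed the threshold without replicate 1 (0.187), 3 (0.175) or 4 (0.0836). Cells at 20 Gy exceeded passaged ones by 1.71 ± 0.43 (adjusted p = 0.0135; 0.084 without replicate 1 and 0.0664 without replicate 3), and the interaction with C56BL6 at 12 d was −0.4 ± 0.63 (adjusted p = 0.709).

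Wild cells at 12 d had Grem1 at 19.3, 63.4, 3176 and 14.3 CPM untreated, 64.8, 385, 2712 and 99.7 CPM after 20 Gy and 18.6, 58.7, 777 and 35.3 CPM when passaged. Replicate 3 stood far above the others in each group, and it was the one number that did not gain at 20 Gy, with folds of 3.36, 6.07, 0.854 and 6.97. The change was 0.01 ± 1.83 (adjusted p = 0.998; 1.81 ± 0.51 with the block, adjusted p = 0.0572). Cells at 20 Gy were above passaged ones in 4 of 4 numbers (1.91 ± 1.53, adjusted p = 0.476; 1.98 ± 0.19 with the block, adjusted p = 0.000361), and with the block this passed without number 1 (0.00244) or 4 (0.00179).

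**Figure D2:**
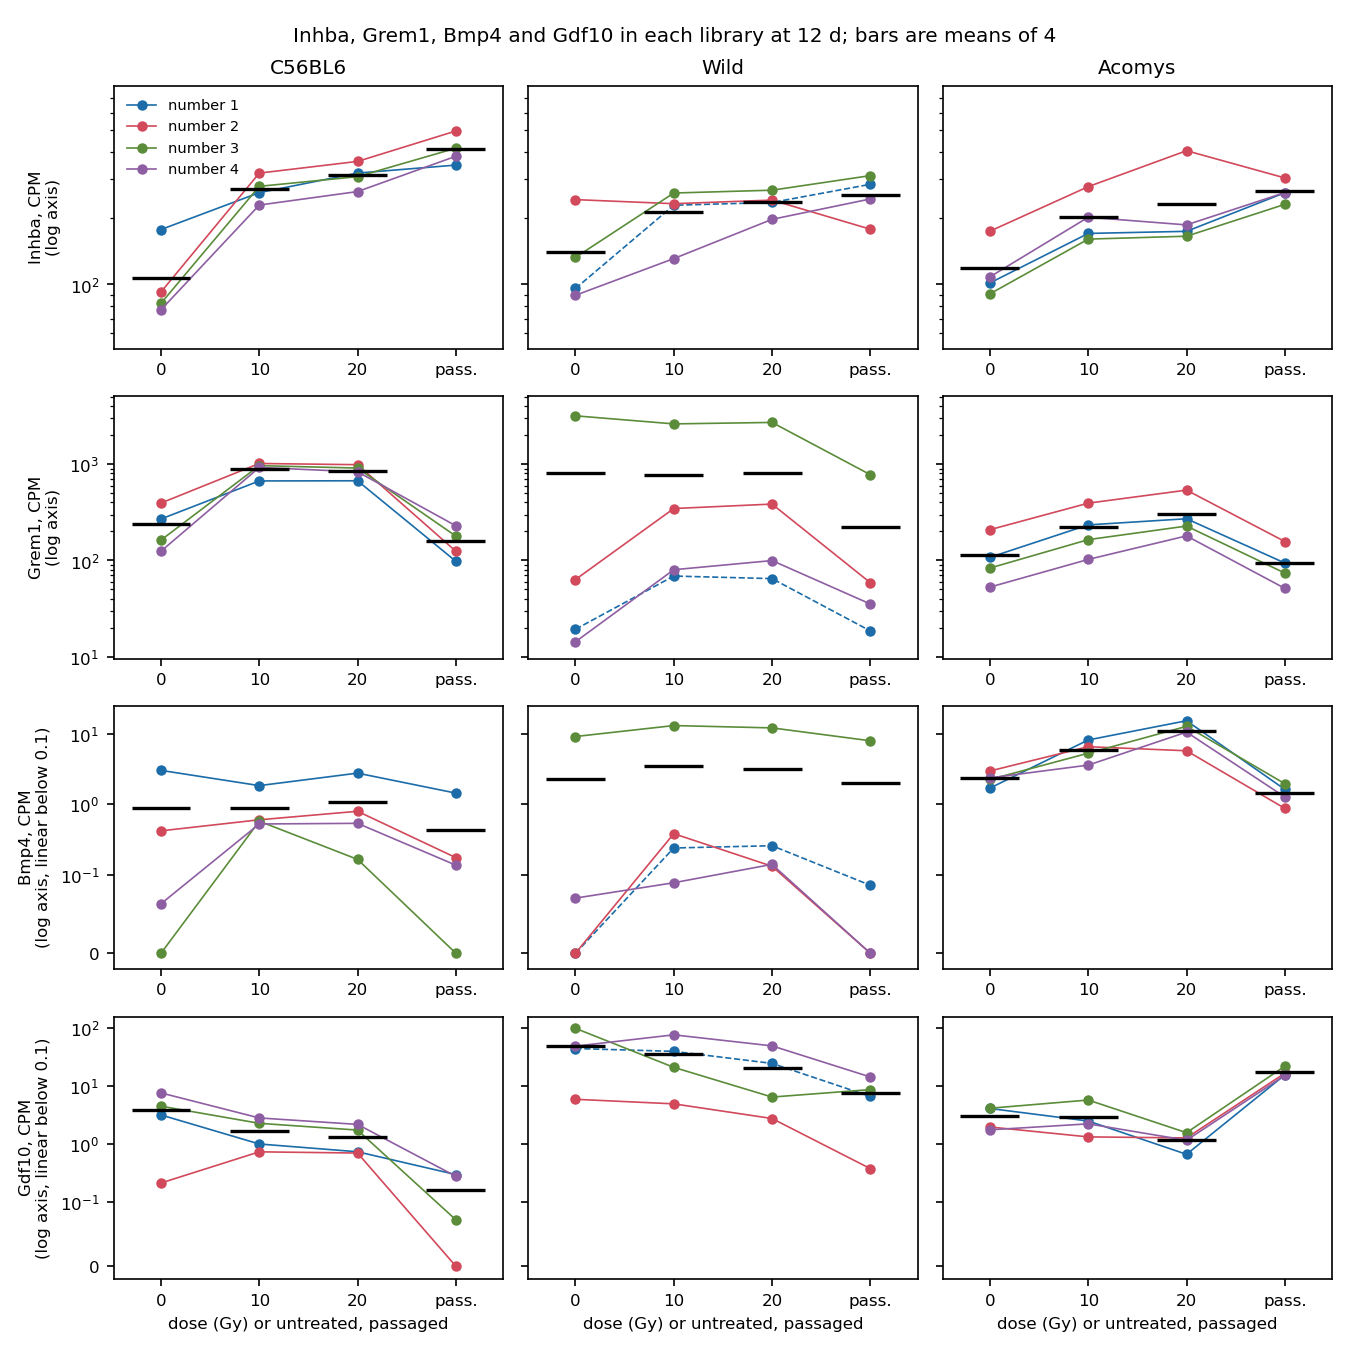
Inhba, Grem1, Bmp4 and Gdf10 in CPM for every 12 d library (untreated, 10 Gy, 20 Gy, passaged) in the 3 populations, with lines joining one replicate number and the wild number 1 dashed. All axes are logarithmic, those of Bmp4 and Gdf10 linear below 0.1. Grem1 of C56BL6 is high at both doses (669.5 to 1016 CPM) and low when passaged, and Bmp4 of *A. cahirinus* is higher at both doses than in untreated cells. Gdf10 of passaged *A. cahirinus* cells (15 to 21.6 CPM) lies above the other 12 d groups of that species, while untreated wild libraries reach 96.8 CPM.

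Set against all genes tested, the counts of members were as follows at 12 d. In C56BL6 cells 20 Gy raised 3 of 9 tested members (Gdf15, Grem1 and Inhba) and lowered none, where 26.5% of all tested genes passed. The block gave 5, with Bmp6 and Tgfb2 added (47.5% of all genes). The median change of the tested members was 0.65 against −0.01 over all genes. At 10 Gy Gdf15, Grem1 and Inhba passed (20.9%), and 5 with the block (38.8%). Passaging raised Gdf15 and Inhba, 2 of 7 (49.6%), and 4 with the block (60.1%). Of 9 members, 4 differed between 20 Gy and passaged cells (41.6%), with Bmp6, Gdf10 and Grem1 higher and Inhba lower after radiation, and 8 with the block (56.1%). Gdf10 is among them only through its counts at 20 Gy. Without replicate 3 no member passed at either dose, without replicate 1 there were 7 at each dose and 4 with passaging, and without replicate 4 there was 1 at 10 Gy and 2 between 20 Gy and passaged cells. Between 10 and 20 Gy none of 9 passed in edgeR (0.0%), none at an unadjusted p under 0.05, none by DESeq2 and none with the block (0.297%).

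In *A. cahirinus* at 12 d 20 Gy changed 5 of 9 tested members, 4 higher (Bmp4, Grem1, Tgfb2 and Tgfb3) and Gdf10 lower, where 31.8% of all genes passed. With the block 7 passed (49.2%), Inhba and Bmp6 added. The median was 0.66 against 0.0 over all genes. At 10 Gy Tgfb3 passed (2.87%), and 7 members with the block (27.5%). Passaging raised Gdf10, Gdf15 and Inhba, 3 of 9 (25.8%), and the block added Grem1 as lower (49.5%). Between 20 Gy and passaged cells 4 of 9 differed (42.5%), with Bmp4, Grem1 and Tgfb2 higher and Gdf10 lower, and 6 with the block (56%). Between 10 and 20 Gy edgeR called none of 10 (0.457%), with 3 at an unadjusted p under 0.05 and none by DESeq2, and 4 passed with the block (17.9%). Without replicate 1 or 3, 2 members passed at 20 Gy, none at 10 Gy and 1 with passaging, and without replicate 4, 3 passed at 20 Gy and none at 10 Gy. Without replicate 2 the counts were 4 at 10 Gy, 2 between the doses and 7 between 20 Gy and passaged cells.

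Wild cells gave no passed member at 12 d without the block. At 20 Gy edgeR called none of 8 (0.0694% of all genes), with 1 at an unadjusted p under 0.05 and none by DESeq2, and the block called 2, Gdf15 and Inhba (15.4%). Neither was called with the block when number 1 or number 4 was left out. At 10 Gy none of 8 passed (0.264%; none at an unadjusted p under 0.05, none by DESeq2), and with the block Gdf15 did (12.7%), a call lost without number 1 (adjusted p = 0.0582) or 4 (0.076). From 10 to 20 Gy none passed (0.0%; none unadjusted, none by DESeq2), and Gdf10 did with the block (0.257%). With passaging none passed in edgeR (10.7%; 3 unadjusted, 1 by DESeq2; 2 in edgeR without replicate 2), and Gdf10 and Tgfb1 were lower with the block (31.9%). The Tgfb1 call was lost without number 1 (adjusted p = 0.0752) or 4 (0.0593), and the Gdf10 call was not. Against passaged cells none passed at 20 Gy (10.5%; 1 unadjusted, none by DESeq2), and with the block 6 were higher (38%), a count that fell to 3 without number 1 and to 3 without number 4 (Tgfb1, Bmp6 and Grem1 each time).

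At 24 h no member passed in any population without the block. In C56BL6 cells edgeR called none of 7 at 20 Gy (0.0895% of all genes), 2 had an unadjusted p under 0.05 and DESeq2 called 1, Gdf15. At 10 Gy it called none (0.007%; 2 unadjusted, Gdf15 by DESeq2). The block called 3 at each dose, Gdf15 higher and Grem1 and Tgfb3 lower (17.6% and 11.5% of all genes), and Gdf15 from 10 to 20 Gy (1.44%), where the fit without it called none (0.0%; none unadjusted, none by DESeq2). In wild cells none of 9 passed at 20 Gy or 10 Gy (0.0% each; 1 unadjusted at each dose, none by DESeq2) or between the doses (0.0%; none unadjusted, none by DESeq2). The block called Gdf15 at 20 Gy (12.5%) and no wild member at 10 Gy or between the doses (0.0% each). In *A. cahirinus* none of 10 passed at 20 Gy (3.59%; 1 unadjusted, none by DESeq2) or 10 Gy (3.73%; 1 unadjusted, none by DESeq2). With the block, Bmp6 and Tgfb3 were higher at 20 Gy (24.1%) and Gdf15, Grem1, Inhba, Tgfb2 and Tgfb3 at 10 Gy (27.6%). Between the doses none passed without (0.0%; none unadjusted, none by DESeq2) or with the block (0.302%).

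Between populations, the 20 Gy change at 12 d passed as different between *A. cahirinus* and C56BL6 cells for 2 of 10 members, Gdf15 and Bmp2 (18.8% of all genes), and for 3 with the block, Inhba added (38%). Of these, Bmp2 had 1 count in all 4 untreated C56BL6 libraries together and supports no difference between the populations. Without number 1 or 2 the count was 1 and without number 3 or 4 none passed. Against wild cells none of 9 passed (3.35%; 1 unadjusted, none by DESeq2), and 2 with the block, Tgfb3 and Gdf15 (23.3%). Between wild and C56BL6 changes no difference passed among 9 (0.0%; none unadjusted, none by DESeq2), also with the block (0.101%). At 24 h no interaction passed: 2.09% of all genes did for *A. cahirinus* against C56BL6, where none of 10 members had an unadjusted p under 0.05 and the block called 3 (16.8%). The other 2 interactions at 24 h had 0.0% of genes passing and no member, with 7.25% and 0.647% under the block and no member there either. DESeq2 called no member in any interaction at 24 h. Between untreated wild and C56BL6 cells none of 7 tested members passed in edgeR at 24 h (5.7%; 1 unadjusted) and none of 8 at 12 d (2.93%; 2 unadjusted), while DESeq2 called Gdf10 as higher in wild cells at both times and edgeR passed 1 member at 12 d without number 1 or 2. The edgeR value for Gdf10 at 12 d was 3.66 ± 1.04 (adjusted p = 0.128).

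**Figure D3:**
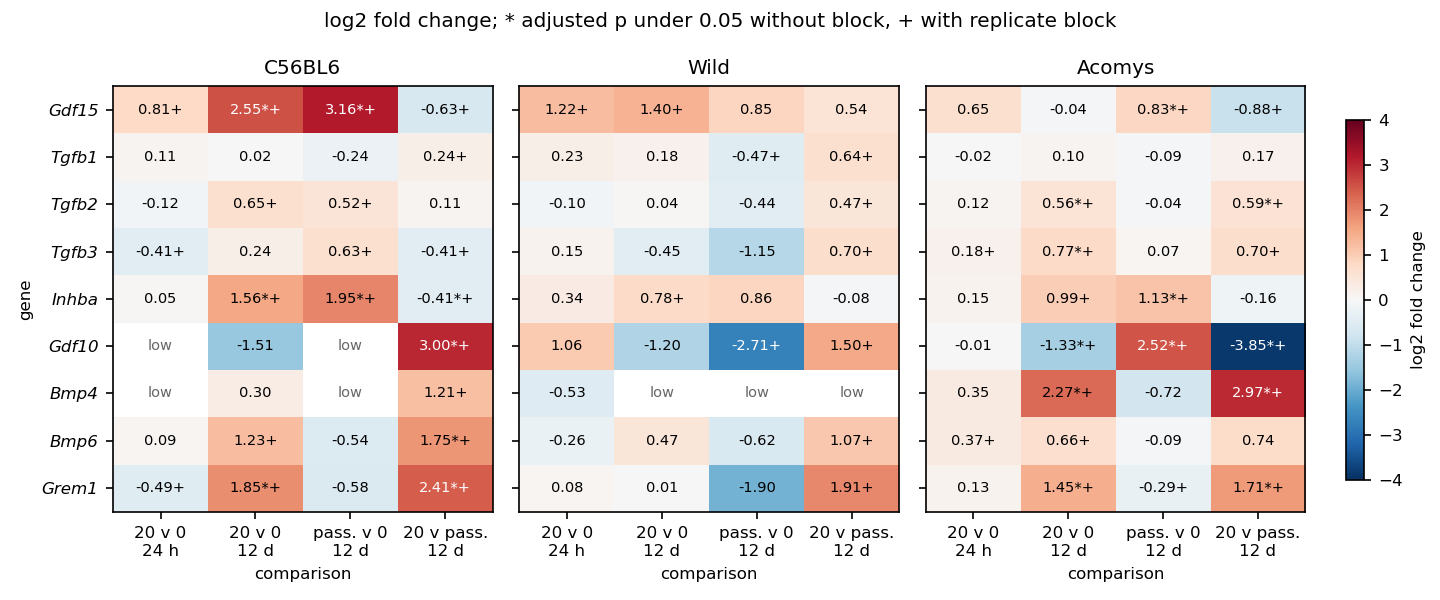
Log2 changes of 9 members (Bmp2 left out) in 4 comparisons per population, coloured by direction and size, with an asterisk where the adjusted p was under 0.05 without the block, a plus sign where it was with the block, and "low" where the gene failed the expression filter. Grem1 is positive for 20 Gy against passaged cells in all 3 populations (2.41, 1.91 and 1.71), and the Gdf10 value there is −3.85 in *A. cahirinus* and 3.0 and 1.5 in the mice, the 3.0 of C56BL6 cells resting on few counts when passaged.

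The rest of the pathway was read from 8 lists, given here by counts and medians and with no test of a list. Earlier results of these data were known when they were drawn up. The shares of all tested genes to read them against at 20 Gy are 26.5% in C56BL6 and 31.8% in *A. cahirinus* (47.5% and 49.2% with the block). With passaging they are 49.6% in C56BL6, 10.7% in wild (31.9% with the block) and 25.8% in *A. cahirinus* cells. With passaging, 6 of 13 tested receptors fell and none rose in C56BL6 cells, a share close to the 49.6% of all genes, led by Tgfbr2, the type II TGF-beta receptor (−2.2 ± 0.21, adjusted p = 0.000298), and the co-receptor Tgfbr3 (−1.82 ± 0.62, adjusted p = 0.0392), with a median of −0.19 against −0.02 over all genes. In *A. cahirinus* 4 of 14 fell and 1 rose, with Tgfbr3 at −1.66 and Tgfbr2 at −1.05. In wild cells 3 of 13 fell (6 with the block), led by Acvrl1 (−1.22) and Acvr1b (−1.02). After 20 Gy, 1 rose and 3 fell of 13 in C56BL6 cells (Bmpr2 0.26, Acvr2a −1.16, Tgfbr2 −0.97), and 4 rose and 6 fell with the block. In *A. cahirinus* 3 rose and 2 fell of 14 (Bmpr2 0.47, Eng 0.3, Tgfbr3 −2.34, Bmpr1b −0.66), and 4 each with the block.

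Among the SMAD proteins, Smad7, the inhibitory SMAD that TGF-beta itself induces, rose at 20 Gy in C56BL6 (1.3 ± 0.23, adjusted p = 0.00577), likewise in *A. cahirinus* (1.18 ± 0.35, adjusted p = 0.0347), and with passaging in all 3 populations (1.75, 0.67 and 1.0 in C56BL6, wild and *A. cahirinus*). In C56BL6 cells 2 of 8 SMADs rose at 20 Gy, with Smad3 (0.52) the other, and none fell (4 and 1 with the block). In *A. cahirinus* 2 of 8 rose and 1 fell (4 and 2 with the block), as Smad2 rose by 0.6 and Smad4, the common partner, fell by 0.56. Of all tested genes 26.5% passed at 20 Gy in C56BL6 and 31.8% in *A. cahirinus* cells, and the SMAD counts lie near these shares. Smad9, which is also on the list of BMP targets below and counted there again, rose with passaging in C56BL6 (2.0) and *A. cahirinus* (1.3).

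TGF-beta target genes went both ways. At 20 Gy in C56BL6 cells 2 of 12 rose, Smad7 among them, and 4 fell, led by the matrix genes Postn (−2.68 ± 0.29, adjusted p = 0.00134) and Tgfbi (−1.67 ± 0.19, adjusted p = 0.00156), with a median of 0.19 against −0.01. In *A. cahirinus* 2 rose and 3 fell, with Tgfbi at −2.44 and the collagen gene Col1a1 at −0.76. With passaging 5 rose and 2 fell in C56BL6 cells (Ccn2 1.62, Postn −1.99), 1 and 1 in wild cells (Pmepa1 −0.91; 2 and 2 with the block) and 3 and 2 in *A. cahirinus*.

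With passaging, BMP target genes rose or did not pass. Of 9, 5 rose in C56BL6 cells (median 0.99), 1 in wild cells (median 0.65; 5 with the block) and 6 in *A. cahirinus* (median 0.8), where the medians of all genes were −0.02, −0.03 and −0.01. The shares of all genes that passed were 49.6%, 10.7% (31.9% with the block) and 25.8%, so 5 of 9 in C56BL6 and 1 of 9 in wild cells lie near them. Id1, an inhibitor of DNA binding that BMPs induce directly, rose by 2.86 ± 0.42 in C56BL6 (adjusted p = 0.00113) and by 2.48 ± 0.49 in wild cells (adjusted p = 0.0246). At 20 Gy, where Grem1 also rose, 1 of 9 rose in C56BL6 (Id1, 1.95 ± 0.48, adjusted p = 0.0209) and 1 in *A. cahirinus* (Atoh8, 1.33 ± 0.32, adjusted p = 0.0138), and none fell in either. With the block 3 rose and 1 fell in C56BL6, and 4 rose and 1 fell in *A. cahirinus*.

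Extracellular inhibitors and the proteins of TGF-beta latency and activation went both ways. At 20 Gy 2 rose and 3 fell of 18 in C56BL6 cells (3 and 7 with the block), with the BMP antagonist Chrdl1 at −2.64. In *A. cahirinus* 3 rose and 1 fell of 20 (10 and 2 with the block), with the BMP antagonist Nog at 1.36, Ltbp3 at 0.81 and Ltbp4 at −1.52, the last 2 being latent TGF-beta binding proteins. With passaging Chrdl1 fell by 5.38 in C56BL6 cells, and Fst, which binds activin, fell by 3.43 and Chrd by 2.58 in *A. cahirinus*. Of the 23 other ligands of the superfamily, 8 were expressed enough to test in C56BL6 and *A. cahirinus* cells. At 20 Gy edgeR called none of the 8 in C56BL6 cells (none at an unadjusted p under 0.05, none by DESeq2; 1 higher and 1 lower with the block), and 2 rose in *A. cahirinus* (5 with the block), Gdf6 (1.23 ± 0.23, adjusted p = 0.00481) and Gdf11 (1.21 ± 0.14, adjusted p = 0.000638), with a median of 0.83 against 0.0. With passaging Gdf6 fell by 2.27 in C56BL6 and fell by 3.25 in *A. cahirinus*.

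Gdf15 itself is counted in neither of the last 2 lists, the targets of p53 and those of ATF4 and CHOP. Of 11 p53 targets, 6 rose and 1 fell at 20 Gy and 12 d in C56BL6 cells (median 0.56), and 8 rose in *A. cahirinus* (median 1.12), led by Eda2r (1.83) and Ccng1 (1.69). Of the ATF4 and CHOP targets, 1 rose (Atf3, 2.06 ± 0.3, adjusted p = 0.00303) and 1 fell of 11 in C56BL6 cells (median 0.1; 4 and 1 with the block). In *A. cahirinus* 8 of 12 fell and none rose (median −1.18), led by Phgdh (−2.32 ± 0.17, adjusted p = 0.000125), an enzyme of serine synthesis, and Trib3 (−1.93 ± 0.12, adjusted p = 7.99e-05). With passaging 6 ATF4 and CHOP targets rose in each population and 1 fell in *A. cahirinus*. Of all tested genes 49.6% passed in C56BL6, 10.7% in wild and 25.8% in *A. cahirinus* cells. The C56BL6 count lies near that share. The p53 targets were mixed with passaging, with 2 rising and 2 falling in C56BL6, none and 1 in wild (5 and 1 with the block) and 2 and 4 in *A. cahirinus* cells. In wild cells at 20 Gy no gene of any list passed in edgeR without the block, although 19 of 86 had an unadjusted p under 0.05 and DESeq2 called 8. With the block 9 of 11 p53 targets rose and 1 fell, against 3 and 1 of 11 ATF4 and CHOP targets. Of all tested genes in wild cells at 20 Gy and 12 d, 0.0694% passed without the block and 15.4% with it. Mdm2 and Cdkn1a were among the wild targets that the block moved past the threshold (1.85 and 2.33 without it, adjusted p = 0.00276 and 0.00298 with it). Whether the lists differ between populations was not tested.

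**Figure D4:**
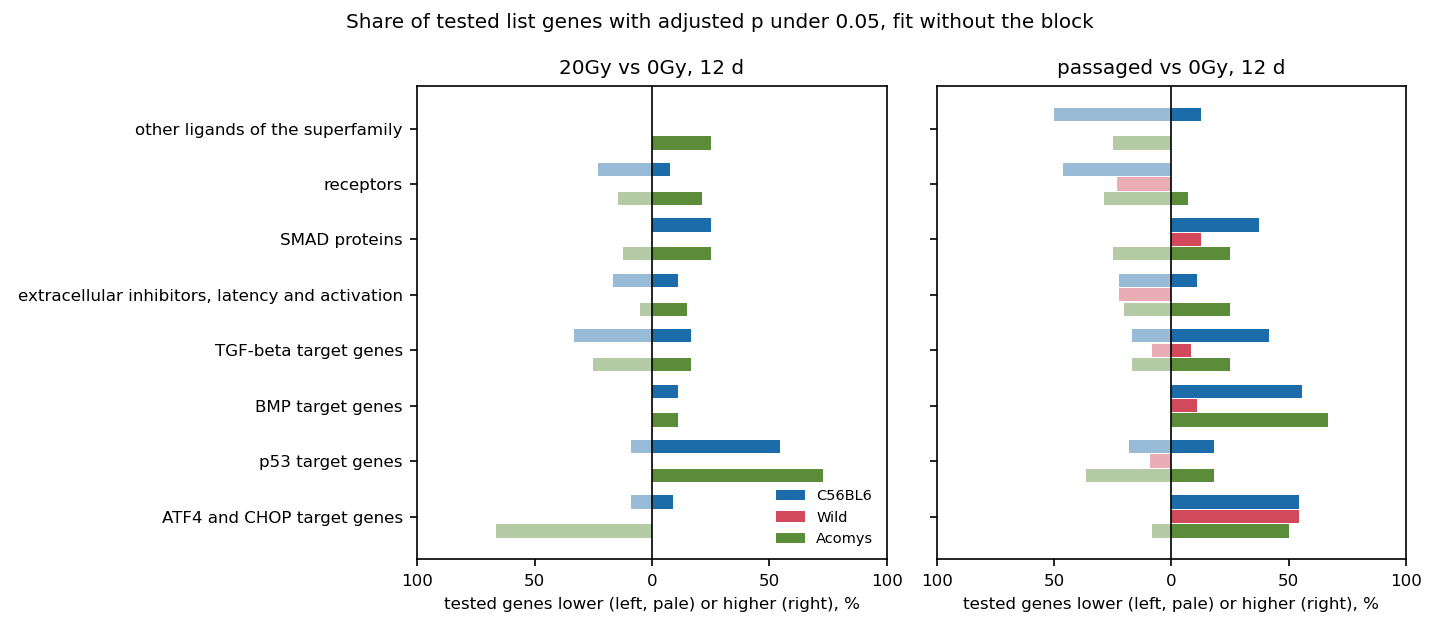
Share (%) of the tested genes of each list that were lower (left, pale) or higher (right, dark) at 12 d at an adjusted p under 0.05 without the block, for 20 Gy against untreated and passaged against untreated cells, coloured by population. The ATF4 and CHOP targets lie to the left in *A. cahirinus* at 20 Gy (8 of 12 lower) and to the right in all 3 populations with passaging (6 higher in each, and 1 lower in *A. cahirinus*). Of all tested genes 49.6%, 10.7% and 25.8% passed with passaging in C56BL6, wild and *A. cahirinus* cells.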

How the data were processed

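Messenger RNA of 84 fibroblast libraries was sequenced and the authors deposited raw read counts per gene, whole numbers with no normalisation, made with featureCounts 2.0.3 per the file headers. Mouse reads were counted on GRCm39 with Ensembl release 108 and *A. cahirinus* reads on AcoCah2 gene names, per the file headers, and Trim Galore and HISAT2 are named in the submitters' processing notes. The deposited gene lengths, in base pairs per the file headers, were used for RPKM. No strand option stands in the command. Symbols matched 56236 of 56980 mouse identifiers, and 18109 symbols found once in each table entered the interactions.

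CPM were counts over library totals adjusted by TMM scaling over all libraries of a table. The unadjusted totals held 17.42 to 52.86 M counts. Changes came from edgeR 4.0.16 in R 4.3.3 (TMM scaling, its default expression filter, quasi-likelihood test, Benjamini-Hochberg adjustment, threshold 0.05), over the groups compared only, in 32 comparisons. Same-numbered libraries deviated together from their group means (mean r 0.5 to 0.89, lowest 0.36, against −0.29 to −0.12 between numbers) and share an animal code in the library names, so blocked values are given beside results they change. Alternatives were the block, RLE scaling, no filter, DESeq2 1.42.0, one joint fit per population and time, and the omission of each replicate number in turn. The blocked wild fits without number 1 or 4 were chosen after seeing the data. On simulated counts of the C56BL6 20 Gy comparison at 12 d (200 changed genes among 14937), edgeR recovered 11% of 2-fold and 99% of 4-fold changes without the block and 100% of each with it, and called 0.07% of unchanged genes with the block. DESeq2 recovered 38% and 100% among 15119 genes. In the simulation each replicate number had the same offset in both groups, all genes had the same noise, and only well-counted genes were changed. It held no difference in response between replicate numbers, which is what the block assumes, so the recovery with the block is a best case.

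Named genes are the 10 members, Mdm2 and Cdkn1a, the 5 genes of highest r to Gdf15 in each population, and, from each list, population and 12 d comparison, up to 2 genes per direction that passed with a mean of at least 1 CPM. Of these, the text gives a selection, and some are not reported here. The lists were receptors, SMAD proteins, TGF-beta targets, BMP targets, extracellular inhibitors with latency and activation proteins, other ligands, p53 targets and ATF4 and CHOP targets. Members and lists were chosen with earlier results of these data known. Promoter windows and motifs were read from the GRCm39 sequence.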

Additional observations from a re-analysis of the deposited data

Results flagged for a closer look

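In groups of 4 libraries, one value lay far from the other 3 (by its gap to the nearest value as a share of the group's range) in 35 of 210 combinations of gene and group. The cut-off gives about 1 in 20 for independent values of normal spread. Flagged values here often share a replicate number across groups or come from Bmp2 groups of few counts, so that rate does not apply. In wild replicate 3 at 12 d, Grem1 was 3180, 2620, 2710 and 777 CPM and Bmp4 9.1, 13, 12.1 and 7.92 CPM, in untreated, 10 Gy, 20 Gy and passaged cells. Bmp2 stood apart there at 0.135 CPM untreated and 0.0717 CPM passaged. Wild replicate 1 at 24 h stood apart for Tgfb3 (865, 660 and 983 CPM at 0, 10 and 20 Gy), for Tgfb2 (113 CPM at 0 Gy and 108 CPM at 20 Gy) and for Bmp2 (0.652 CPM at 0 Gy and 0.644 CPM at 10 Gy). Tgfb2 was low in wild replicate 2 at 20 Gy and 12 d (30 CPM).

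C56BL6 replicate 1 stood apart for Bmp4 at 24 h (1.42, 1.33 and 2.02 CPM at 0, 10 and 20 Gy) and at 12 d (3.02 CPM untreated, 1.83 CPM at 10 Gy and 1.44 CPM passaged). At 12 d it also did so for Tgfb1 (74.3 CPM untreated and 47.2 CPM at 10 Gy), Inhba (178 CPM untreated), Bmp2 (0.0343 CPM untreated) and Bmp6, which was low at 20 Gy (8.49 CPM). Bmp2 was 0.0953 CPM in untreated C56BL6 replicate 2 at 24 h, against 0 in the rest of its group.

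In *A. cahirinus* untreated replicate 2 at 24 h was low for Tgfb1 (64.2 CPM) and Bmp4 (0.678 CPM), and replicate 2 at 20 Gy and 12 d was high for Inhba (404 CPM). Tgfb2 at 12 d was high in replicate 1 at 10 Gy (505 CPM) and low in replicate 4 when passaged (312 CPM). The 20 Gy change at 12 d differed between *A. cahirinus* and C56BL6 cells for Gdf15 (interaction −2.57 ± 0.73, edgeR adjusted p = 0.0256). The fitted interaction of Bmp2 was −4.18 ± 0.92 (edgeR adjusted p = 0.00729), with 1 count in the untreated C56BL6 libraries together, and supports no difference between the populations.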

How the results depend on the processing

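Counts below are members passing, and the cause of a change in them was not tested. With the replicate number as a block, in the order 20 Gy, 10 Gy, 20 against 10 Gy, C56BL6 counts at 24 h were 3, 3 and 1. At 12 d they were 5 and 5, then 4 passaged and 8 for 20 Gy against passaged. Wild counts with the block were 1 for 20 Gy at 24 h, and at 12 d 2, 1 and 1, then 2 passaged and 6 for 20 Gy against passaged. *A. cahirinus* counts with the block were 2 and 5 at 24 h and, at 12 d, 7 at 10 Gy and 4 for 20 against 10 Gy. Blocked interactions gave 3 (*A. cahirinus* against C56BL6, 24 h) and 2 (against wild, 12 d). DESeq2 gave 1 and 1 in C56BL6 at 24 h, 5 and 5 at 12 d, 1 for passaged wild cells, 3 for *A. cahirinus* at 10 Gy and 12 d, and 1 for untreated wild against C56BL6 cells at each time. RLE scaling gave 2 and no filter 0 for *A. cahirinus* at 10 Gy and 12 d, no filter gave 1 for untreated wild against C56BL6 cells at 24 h, and the fit of all groups gave 4 for passaged C56BL6 cells. No filter and the fit of all groups moved no other count by more than 1.5 times.

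Leaving out one number at a time, C56BL6 counts at 12 d ran from 0 to 7 at 20 Gy and at 10 Gy, 2 to 4 passaged and 2 to 6 for 20 Gy against passaged. *A. cahirinus* counts ran from 2 to 6 at 20 Gy, 0 to 4 at 10 Gy, 0 to 2 between doses, 1 to 3 passaged and 3 to 7 for 20 Gy against passaged. Wild counts, blocked fits without number 1 or 4 included, ran from 0 to 1 between doses, 0 to 2 passaged and 0 to 3 for 20 Gy against passaged. Both interactions of *A. cahirinus* at 12 d and wild against C56BL6 at 12 d ran from 0 to 1. Gdf15 changed sign in *A. cahirinus* at 20 Gy and 12 d under RLE scaling (0.01), and leaving out a number gave −0.51 to 0.19. Between doses, leaving out a number gave −0.14 to 0.07 in C56BL6 at 12 d, −0.34 to 0.1 in wild at 24 h, and in *A. cahirinus* −0.06 to 0.28 at 24 h and −0.57 to 0.08 at 12 d. The 24 h interaction with C56BL6 ran from −0.64 to 0.1. Of 102 single-gene values, 92 kept direction and side of the threshold with DESeq2 and 99 with RLE scaling, and with the block 42 did and 58 passed anew. Bmp2, Bmp4 and Gdf10 had libraries under 3 counts, which limits their changes.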
